A study of Homo sapiens with 15 samples.

Results

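Aminoacyl-tRNA synthetases attach each amino acid to its transfer RNA, and they are described here across cell lines that express different forms of the RNA helicase UPF1. The members were chosen by name: 20 cytosolic enzymes and 16 mitochondrial enzymes, whose symbols end in 2, make 36 of the 12261 genes in the deposited table. The family was picked with earlier results of the same comparisons known, so the counts and medians over its members describe it and support nothing further. RNA came from HEK-293 Trex cells, a human embryonic kidney line in which doxycycline at 200 ng/mL switches on a transgene. Each transgene was in a line of its own: CLIP-tagged UPF1 isoform 1 (UPF1-1), CLIP-tagged UPF1 isoform 2 (UPF1-2) or GFP, and all lines carried endogenous UPF1 and received doxycycline. Total RNA was sequenced from the 3 lines, and RNA that came down with the CLIP tag (IP) from the lines with a UPF1 transgene, with 3 replicates in each of the 5 groups and 15 libraries in all. A difference between lines cannot be told apart from an effect of the protein, and the labels do not say whether a line was a single clone or whether replicates were separate cultures. P-values therefore measure only the spread between these samples. The samples held no IP from the GFP line, so recovery is a ratio to total RNA and not to a background purification.

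Cytosolic synthetases charge the tRNAs that serve translation of nuclear-encoded mRNA, while the mitochondrial enzymes are made in the cytosol, imported, and charge the tRNAs of the mitochondrial genome. Several cytosolic enzymes sit together with scaffold proteins in the multi-synthetase complex, and the others work outside it. The transcription factor ATF4 is widely described as raising many cytosolic synthetase genes when amino acids are scarce or the endoplasmic reticulum is stressed. UPF1 acts in nonsense-mediated decay, which degrades mRNAs whose translation ends too early, and it also binds mRNA broadly; its isoforms differ in the length of a regulatory loop in the helicase domain.

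The promoters were searched for a short element that is background to the ATF4 literature, since members of the family are described as sharing it. The letters searched were TGATGNAA, read on either strand (TTNCATCA on the reverse), in the 250 bases before each RefSeq start on GRCh38.p14. A promoter matched for 30 of the 36 members; DARS, LARS, VARS, YARS, AARS2 and VARS2 had no match. The letters occurred in 4 of those 30 (13.3%), against 500 of 15843 protein-coding genes (3.16%). They are shown in capitals, with their flanks, for these 4 members because they are the sequences on which that count rests. All are 5′ to 3′ on the strand of the gene.
AARS: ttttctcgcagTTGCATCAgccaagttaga
GARS: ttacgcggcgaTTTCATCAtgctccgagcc
IARS: ttttcagcgcgTTGCATCAcctcc
YARS2: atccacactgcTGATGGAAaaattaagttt
The AARS stretch is at chr16:70289675-70289704 on the minus strand, with the letters 187 bases before the start. The GARS stretch is at chr7:30594834-30594863 on the plus strand, 33 bases before the second of 2 annotated starts. The IARS stretch is at chr9:92293698-92293721 on the minus strand and its letters lie 13 bases before the start. The YARS2 stretch is at chr12:32756076-32756105 on the minus strand, 197 bases before the start. Of the cytosolic enzymes widely described as ATF4 targets 3 of 10 with a promoter held the letters, and of the other cytosolic enzymes 0 of 6. A match is a description of the letters and not of binding.

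The table gives TPM, a transcript abundance scaled for transcript length and for the size of the library, for 1 Ensembl transcript of each gene. The 36 members summed to 389 to 720 TPM in the 9 total RNA libraries and to 2377 to 4985 TPM in the 6 IP libraries. The listed genes held 12.2% to 19.0% of the TPM scale in total RNA and 44.7% to 69.9% in the IPs, and the replicate 3 libraries were the highest of their group throughout. Replicate 3 stood apart in this way in every group, so results are also given without it. UPF1 was listed at 3.24 to 8.57 TPM in the GFP line, 94.5 to 186 TPM in the UPF1-1 line and 68.9 to 171 TPM in the UPF1-2 line. Of 11 cell type markers, NEFL, KRT8, KRT18 and VIM were in the table; in total RNA VIM ranged from 113 to 184 TPM and NEFL, a neurofilament gene known in this line, from 6.57 to 18.8 TPM. The other 7 markers, including those of blood, liver and endothelial cells, were not analysed here. Read depth is not part of a TPM table, so no counting interval is given.

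Cytosolic synthetase mRNAs were the more abundant class. In GFP total RNA their median was 19.8 TPM over the 20 genes, and that of the 16 mitochondrial genes was 4.53 TPM, against 1.94 TPM for all 12261 genes over the 9 total RNA libraries. FARSA, the alpha subunit of cytosolic phenylalanyl-tRNA synthetase, was listed at 27.2, 30.0 and 53.2 TPM in the 3 GFP libraries and had the highest mean. KARS, the lysyl enzyme, which also serves mitochondria, followed at 33.1, 36.8 and 38.8 TPM, and IARS, the isoleucyl enzyme, at 34.0, 35.5 and 32.0 TPM. These ranges overlap, so the order at the top is not separated by the replicates. CARS, the cysteinyl enzyme, was the lowest of the class at 2.85, 2.82 and 5.23 TPM. FARSB, the beta subunit that forms a tetramer with FARSA, was listed at 6.46, 7.46 and 9.71 TPM, below FARSA in every library. The listed transcript is 1 of several for many genes, and for some, such as QARS, HARS and VARS2, it may not be the main coding one. A gene's level and recovery here are therefore those of the listed transcript.

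The mitochondrial enzymes ran from LARS2, the leucyl enzyme, at 0.923, 1.04 and 1.93 TPM in the GFP line to IARS2, the isoleucyl enzyme, at 14.1, 15.7 and 21.2 TPM. VARS2, the valyl enzyme, lay next to LARS2 at 0.666, 1.09 and 3.05 TPM and varied most between replicates. RARS2, the arginyl enzyme, was steadier at 10.2, 11 and 11.2 TPM. Each mitochondrial enzyme was set beside the cytosolic enzyme for the same amino acid, with EPRS, which charges glutamate and proline, beside both EARS2 and PARS2. The cytosolic mRNA was the higher in all 9 total RNA libraries for 15 of these 16 pairs, and the ratio of the group means ran from 1.75-fold to 17.1-fold over these pairs and the 3 lines. The exception was cysteine: by group means CARS was at 0.314 to 0.349 of CARS2, which was listed at 9.18, 9.91 and 15.6 TPM in the GFP line. By group means LARS and LARS2 were the farthest apart, at 16.5-fold to 17.1-fold, and IARS and IARS2 among the closest, at 1.75-fold to 2.28-fold.

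**Figure D1:**
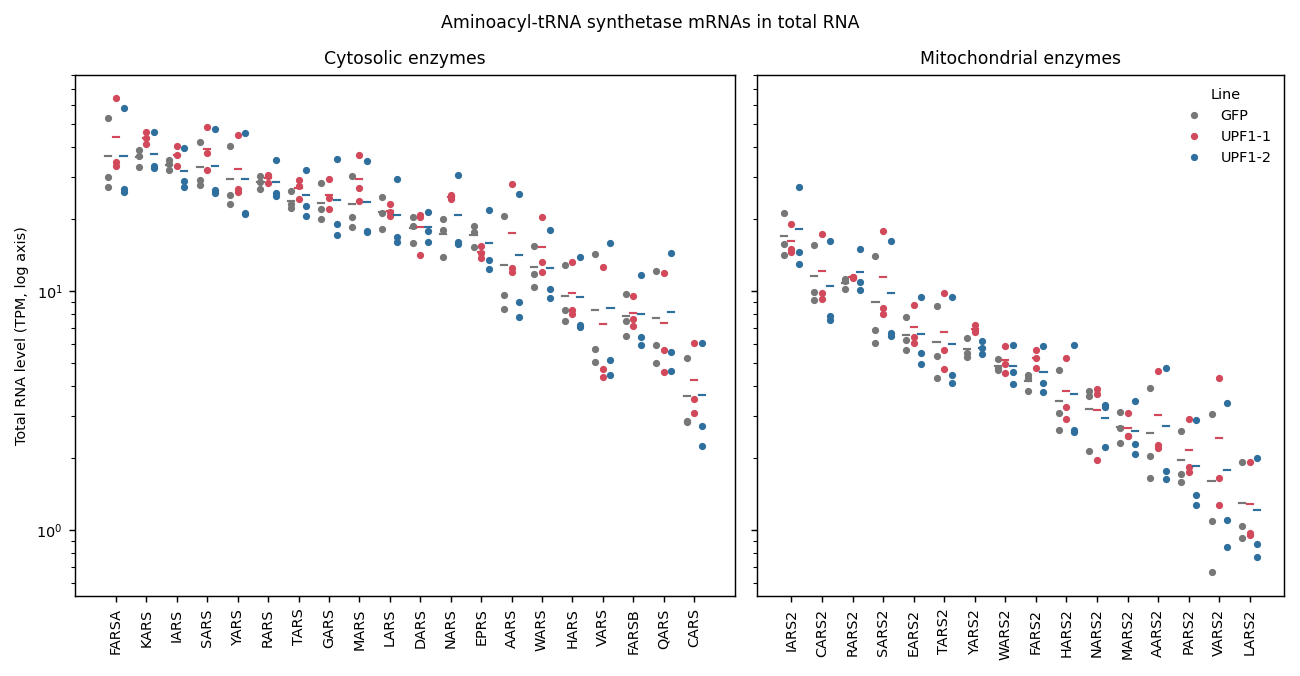
TPM of each synthetase mRNA in total RNA on a log axis, with cytosolic enzymes on the left and mitochondrial enzymes on the right; each point is 1 library, short bars are means of 3, and color gives the line. The cytosolic genes mostly lie above the mitochondrial ones, whose GFP medians were 19.8 and 4.53 TPM.

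The first comparison asks whether synthetase mRNAs differ in the line that expresses UPF1-1 from the line that expresses GFP. In total RNA 5 members were higher and 2 lower in the UPF1-1 line, and 29 did not pass. The higher ones were AARS, MARS and NARS, the cytosolic enzymes for alanine, methionine and asparagine, and SARS2 and VARS2, the mitochondrial enzymes for serine and valine; the lower ones were EPRS and VARS, the cytosolic glutamyl-prolyl and valyl enzymes. The changes were small, and NARS had the largest at 1.35-fold. The values are differences of log2(TPM + 0.5) after the library medians were set equal, from limma with the replicate number as a block and p-values adjusted over 9325 genes; for low genes this scale understates a change. Of all genes tested 8.38% were called higher and 7.79% lower. Fewer expressing cells and less RNA per cell cannot be told apart in these samples.

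AARS was listed at 8.39, 9.62 and 20.7 TPM in the GFP line and at 12.5, 12 and 27.9 TPM in the UPF1-1 line. The raw ranges overlap, because replicate 3 is high in both groups, while each replicate was higher in the UPF1-1 line. The difference was 0.34 ± 0.05 (SE), 1.27-fold, with a limma adjusted p of 0.00433. NARS was listed at 13.9, 17.9 and 20.1 TPM in the GFP line and at 24.9, 24.3 and 25.2 TPM in the UPF1-1 line. Its groups did not overlap, and it was 0.43 ± 0.10 higher (adjusted p = 0.0234, limma). MARS was listed at 18.6, 20.4 and 30.4 TPM and at 26.9, 23.9 and 37.2 TPM, and was 0.26 ± 0.05 higher (adjusted p = 0.0150, limma). VARS2 and SARS2 were 0.41 ± 0.12 and 0.24 ± 0.07 higher, with limma adjusted p of 0.0496 and 0.0484, close to the threshold of 0.05.

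VARS was listed at 5.03, 5.73 and 14.3 TPM in the GFP line and at 4.38, 4.70 and 12.7 TPM in the UPF1-1 line, and fell by 0.29 ± 0.06 (SE; adjusted p = 0.0150, limma). EPRS was listed at 15.3, 17.6 and 18.6 TPM and at 15.4, 14.4 and 13.8 TPM, and fell by 0.32 ± 0.08 (adjusted p = 0.0359, limma). Both were lower in all 3 replicates once the medians were equal, and the raw EPRS values of replicate 1 were nearly level. KARS (0.18, adjusted p = 0.0508 by limma), SARS, the cytosolic seryl enzyme (0.17, 0.0668), and FARS2, the mitochondrial phenylalanyl enzyme (0.19, 0.0926), lay just outside the threshold. The other 26 members lay between -0.16 and 0.18.

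The members' median difference was 0.03, against -0.01 for all genes tested, with 0.04 for the cytosolic and 0.01 for the mitochondrial class. Of 8 enzymes of the multi-synthetase complex 1 was higher (MARS) and 1 lower (EPRS), with a median of -0.04; of the 12 free cytosolic enzymes 2 were higher and 1 lower, with a median of 0.09. Cytosolic enzymes described as ATF4 targets had 3 of 12 higher and 1 lower and a median of 0.09, and the other 8 had 0 higher, 1 lower and a median of -0.05. The rest of the ATF4 programme, a list of stress regulators and amino acid enzymes and transporters without synthetases, had 9 of 22 higher, 0 lower and a median of 0.19. TRIB3, CEBPB and DDIT3, regulators of stress signalling and transcription, led it at 1.55, 1.16 and 1.15. Of the 16 cytosolic enzymes with a matched promoter, the 3 with the letters TGATGNAA were AARS (0.34), GARS (0.02) and IARS (0.04). Their median of 0.04 is thus the value of IARS, and the median of the rest was 0.10.

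Genes that work with the synthetases, such as scaffold proteins of the complex, editing enzymes and peptidyl-tRNA hydrolases, had 4 of 18 higher, 0 lower and a median of 0.02. DTD1, which removes D-amino acids from tRNA, was 0.32 higher, and PTRH2, a peptidyl-tRNA hydrolase, 0.26. AIMP2, a scaffold of the complex that falls outside the naming rule and was named after its values were seen, was 0.21 higher. Carriers of charged tRNA to the ribosome, in a list that also holds their exchange factors, had 1 of 9 higher, EEF1A2, an elongation factor, at 0.30.

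The 7 calls in this comparison rest on the block and the centring. Without the block, without equal medians, or without replicate 2 limma called 0 members, with 2, 8 and 11 at an unadjusted p under 0.05. The share of all genes at that unadjusted p was not counted, here or in the comparisons below. Such member numbers therefore cannot be set against all genes. Leaving out replicate 1 gave 2 calls and leaving out replicate 3 gave 5. By the sleuth q-values in the authors' deposited table, 0 of the 36 members and 45 of all genes were under 0.05 in this comparison; the lowest member value was 0.747, for NARS.

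The next comparison puts the UPF1-2 line against the same GFP libraries. No synthetase mRNA passed: by limma 0 of 36 were called in the blocked and in the unblocked fit, and 1 was at an unadjusted p under 0.05 in the blocked fit and 0 in the unblocked. Of all genes tested 0.279% were called higher and 0.0965% lower. Member differences ran from -0.21 for CARS2, the mitochondrial cysteinyl enzyme, to 0.17 for NARS, with a median of -0.05 against -0.02 for all genes. CARS2 was listed at 9.18, 9.91 and 15.6 TPM in the GFP line and at 7.84, 7.55 and 16.1 TPM in the UPF1-2 line, ranges that overlap, and its limma adjusted p was 0.286. AARS differed by 0.01 ± 0.05 (SE; adjusted p = 0.978, limma) and MARS by -0.05 ± 0.05 (0.795). EPRS and VARS were at -0.18 and -0.08, with adjusted p of 0.439 and 0.644. In the ATF4 programme 2 of 22 genes were higher, TRIB3 at 0.69 and CEBPB at 0.46. Both comparisons share the GFP libraries.

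**Figure D2:**
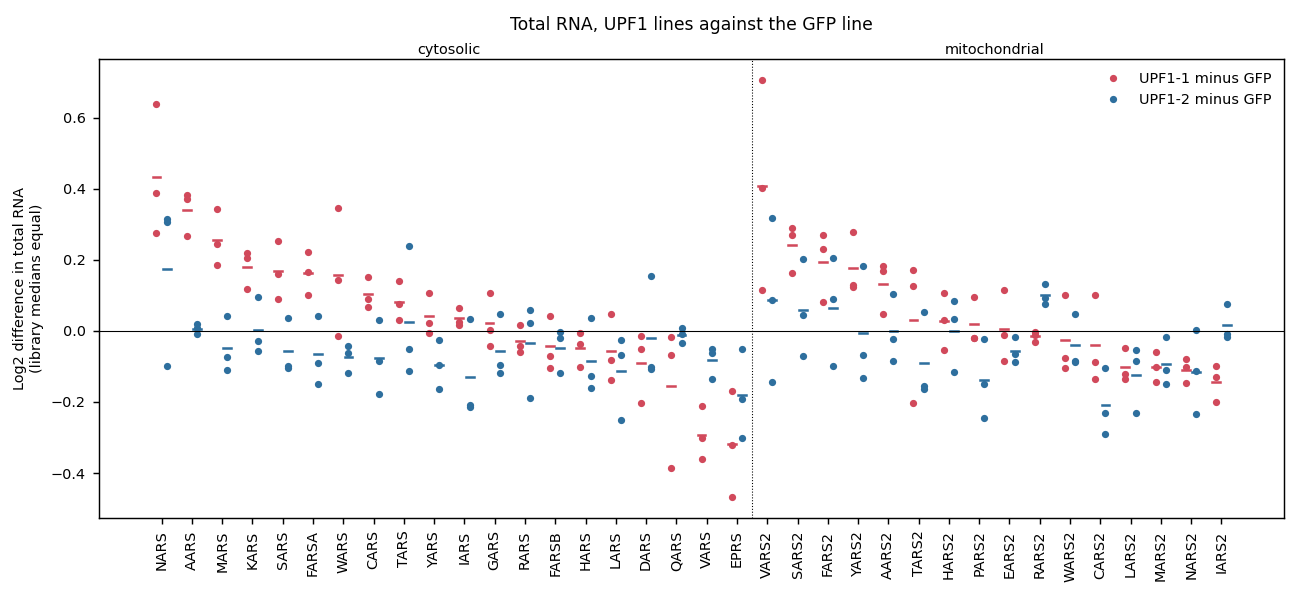
Log2 difference in total RNA from the GFP line after library medians were set equal, for each member; points are the 3 replicate numbers and short bars the fitted values, with color for the UPF1 line. For AARS the UPF1-1 points lie from 0.27 to 0.38 and the UPF1-2 points from -0.01 to 0.02.

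Whether the UPF1 lines differ from each other in total RNA was tested directly. The cytosolic enzymes AARS, MARS, FARSA and SARS were higher with UPF1-1 than with UPF1-2, 0 members were lower and 32 did not pass. Of all genes tested 5.49% were called higher and 4.02% lower. AARS was listed at 12.5, 12 and 27.9 TPM with UPF1-1 and at 7.78, 9.01 and 25.5 TPM with UPF1-2. It was higher in each of the 3 replicates, by 0.33 ± 0.05 (SE) on the log2 scale, with a limma adjusted p of 0.0107. MARS was listed at 26.9, 23.9 and 37.2 TPM and at 17.7, 17.8 and 35.0 TPM, and was 0.30 ± 0.05 higher (adjusted p = 0.0149, limma). SARS and FARSA were 0.22 ± 0.05 and 0.23 ± 0.06 higher, with limma adjusted p of 0.0384 and 0.0492. For all of these the raw ranges overlap, and the difference is one within replicate numbers. UPF1, the induced gene, was itself higher with UPF1-1 in each of the 3 replicates, by 0.31 ± 0.07 (SE; adjusted p = 0.0363, limma). It did not pass without the block or without equal medians. The part of this difference in UPF1 RNA in the comparisons of the isoforms was not tested.

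Of the 36 fitted differences 29 were above 0. The median over members was 0.10, against 0.00 for all genes tested, with 0.11 for the cytosolic and 0.09 for the mitochondrial class. VARS2 was at 0.32 ± 0.12 (adjusted p = 0.122, limma), NARS at 0.26 ± 0.10 (0.140), and WARS, the cytosolic tryptophanyl enzyme, at 0.23 ± 0.07 (0.0789). NARS was higher in replicates 1 and 2, by 0.33 and 0.49, and at -0.04 in replicate 3. VARS, at -0.21 ± 0.06 (adjusted p = 0.0649, limma), and IARS2, at -0.16 ± 0.06 (0.103), were the lowest. Of the complex enzymes 1 of 8 was higher and of the free enzymes 3 of 12, with medians of 0.03 and 0.16.

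Cytosolic enzymes described as ATF4 targets had 3 of 12 higher and a median of 0.17, and the other cytosolic enzymes 1 of 8, FARSA, and a median of 0.01. The rest of the ATF4 programme had 10 of 22 higher, 0 lower and a median of 0.16, led by TRIB3 (0.86), ATF3, a stress-induced transcription factor (0.80), and CEBPB (0.70). Genes that work with the synthetases had 3 of 18 higher (among them DTD1 at 0.24 and PTRH2 at 0.24). The carriers and their exchange factors had 1 of 9 (EEF1A2 at 0.46). With upper-quartile scaling the member calls split into 2 higher and 2 lower, and all calls into 377 higher and 477 lower in place of 512 and 375. Limma called 0 members without the block, without equal medians or without replicate 2, with 2, 7 and 7 at an unadjusted p under 0.05. These last numbers again have no count over all genes beside them. Without replicate 1 limma called 1 member, and without replicate 3 it called 2, 1 in each direction. By the q-values in the authors' deposited table, 0 members and 17 of all genes were under 0.05 between the isoforms.

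The RNA that came down with each isoform was then compared with total RNA of the same isoform and replicate number. With UPF1-1, 10 synthetase mRNAs were recovered above the ratio of the library medians and 17 below it, and 9 did not pass. With UPF1-2, 20 were above and 6 below, and 10 did not pass. The median over all genes tested was itself below that ratio, at -0.16 with UPF1-1 and -0.15 with UPF1-2. EARS2 and HARS2, the mitochondrial glutamyl and histidyl enzymes, and NARS, LARS and WARS, the cytosolic asparaginyl, leucyl and tryptophanyl enzymes, were recovered well with both isoforms; MARS, FARSA, KARS, QARS and SARS were recovered poorly with both. Of all 11969 genes tested 30.8% were called above and 43.9% below with UPF1-1, and 31.5% and 44.2% with UPF1-2. Recovery is the log2 ratio of IP to total TPM + 0.5 after library medians were set equal, tested with limma and the isoform and replicate number together as a block, so 0 is the ratio of the library medians. In the TPM as deposited the IP medians were higher than those of total RNA by 2.56 with UPF1-1 and 2.53 with UPF1-2, and all 36 members were higher in the IP with each isoform. So were nearly all genes: on that scale 2.44% of the genes tested were below 0 with UPF1-1 and 2.08% with UPF1-2.

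EARS2 was listed at 6.42, 6.05 and 8.74 TPM in UPF1-1 total RNA and at 63.9, 65.9 and 104 TPM in the UPF1-1 IP. With UPF1-2 it was listed at 4.96, 5.50 and 9.40 TPM in total RNA and at 79.8, 79.2 and 117 TPM in the IP. Relative to the medians its recovery was 0.79 ± 0.08 (SE) with UPF1-1 and 1.2 ± 0.08 with UPF1-2, the highest of the 36 with each isoform (limma adjusted p of 2.8e-05 and 2.5e-06). HARS2 followed with UPF1-1 at 0.75 ± 0.07 and had 1.03 ± 0.07 with UPF1-2. NARS was listed at 24.9, 24.3 and 25.2 TPM in UPF1-1 total RNA and at 221, 197 and 351 TPM in the IP, and its recovery was 0.74 ± 0.08. With UPF1-2 NARS was listed at 16, 15.8 and 30.5 TPM in total RNA and at 222, 200 and 350 TPM in the IP, a recovery of 1.1 ± 0.08.

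At the other end, FARSA was listed at 34.7, 33.2 and 64.1 TPM in UPF1-1 total RNA and at 88.4, 84.4 and 186 TPM in the IP. Its recovery was -1.16 ± 0.07 (SE) with UPF1-1 and -0.55 ± 0.07 with UPF1-2 (limma adjusted p of 2.2e-06 and 0.000163). MARS was at -1.15 ± 0.09 and -0.67 ± 0.09, KARS at -1.0 ± 0.07 and -0.52 ± 0.07, and QARS, the glutaminyl enzyme, at -1.08 ± 0.11 and -0.50 ± 0.11. In each of these 4 genes all 3 replicates were below 0 with both isoforms. FARSB, whose protein pairs with FARSA, was at -0.37 ± 0.07 with UPF1-1 and at 0.16 ± 0.07 with UPF1-2, the latter with an adjusted p of 0.0624 by limma. The mRNAs of the 2 subunits were thus recovered at different ratios with each isoform, a difference between genes that was not tested.

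By class, the cytosolic enzymes had 3 of 20 above and 11 below with UPF1-1 and a median of -0.29, and 10 above and 5 below with UPF1-2 and a median of 0.21. The mitochondrial enzymes had 7 of 16 above and 6 below with UPF1-1 and a median of 0.16, and 10 above and 1 below with UPF1-2 and a median of 0.38. The medians of all genes tested were -0.16 and -0.15. Mitochondrial enzymes thus had the higher median with each isoform, by 0.45 and 0.18, though both classes spread widely. PARS2, the mitochondrial prolyl enzyme, was below with both isoforms, at -0.46 ± 0.09 and -0.22 ± 0.09 (SE). CARS2 was at -0.67 ± 0.09 with UPF1-1 and -0.16 ± 0.09 with UPF1-2, and VARS2 at -0.60 ± 0.12 and -0.02 ± 0.12; neither passed with UPF1-2. LARS2, TARS2, AARS2, IARS2 and WARS2, the mitochondrial leucyl, threonyl, alanyl, isoleucyl and tryptophanyl enzymes, were above with both, at 0.32 to 0.57 with UPF1-1 and 0.55 to 0.89 with UPF1-2.

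HARS and HARS2 start 85 bases apart on GRCh38 and point away from each other, HARS on the minus and HARS2 on the plus strand. The transcripts listed for these genes were recovered at different levels. HARS, the cytosolic histidyl enzyme, was at -0.25 ± 0.07 (SE) with UPF1-1 and 0.23 ± 0.07 with UPF1-2, and HARS2 at 0.75 ± 0.07 and 1.03 ± 0.07. Their replicate values did not overlap: with UPF1-1 they ran from -0.30 to -0.17 for HARS and from 0.65 to 0.82 for HARS2.

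Enzymes of the multi-synthetase complex split within the complex. LARS was above with both isoforms, at 0.56 ± 0.12 (SE) and 1.1 ± 0.12, while MARS, KARS and QARS were below with both. RARS, the arginyl enzyme, was at -0.38 ± 0.07 and -0.01 ± 0.07, IARS at -0.16 ± 0.07 and 0.19 ± 0.07, DARS, the aspartyl enzyme, at -0.11 ± 0.11 and 0.24 ± 0.11, and EPRS at -0.05 ± 0.13 and 0.58 ± 0.13. Of these, RARS passed with UPF1-1, and IARS and EPRS with UPF1-2. The median of the 8 was -0.27 with UPF1-1 and 0.09 with UPF1-2, beside -0.29 and 0.25 for the 12 free enzymes. Class I and class II cytosolic enzymes, which have unrelated catalytic folds, had medians of -0.33 and -0.31 with UPF1-1 and of 0.19 and 0.19 with UPF1-2.

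The order of the members was much the same with both isoforms: across the 36 genes the recoveries correlated at r = 0.95 (Spearman's rho = 0.93), a description over genes that share the same libraries and scaling. Recovery went little with the level in total RNA, at r = -0.27 with UPF1-1 and -0.23 with UPF1-2 across the 36 members. Genes that work with the synthetases spread more widely, with 6 of 20 above and 10 below with UPF1-1 and 5 and 9 with UPF1-2. The largest were PTRHD1, a peptidyl-tRNA hydrolase domain gene, at -2.31 and -2.41, GATC, a subunit of the mitochondrial glutamyl-tRNA amidotransferase, at 1.61 and 1.60, and PTRH2 at -1.52 and -1.42. Carriers of charged tRNA and their exchange factors had 8 of 9 below with UPF1-1 and 7 with UPF1-2, with medians of -1.48 and -1.17. EEF1B2, an exchange factor subunit, was lowest at -2.62 and -2.18. Near-identical copies of several elongation factor genes make their values uncertain.

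**Figure D3:**
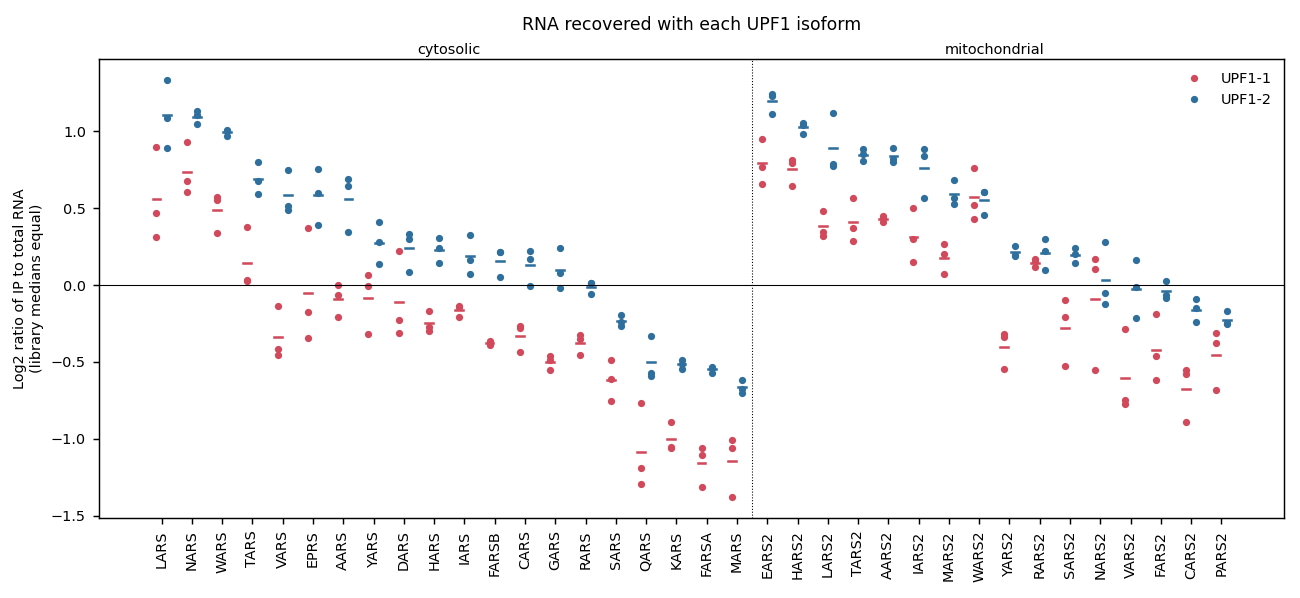
Log2 ratio of IP to total RNA of the same isoform and replicate number after library medians were set equal, for each member; points are the 3 replicate numbers, short bars the fitted values, and color the isoform. The UPF1-2 bars lie above the UPF1-1 bars in all members but WARS2, where they are 0.55 and 0.57.

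These calls depend less on single libraries than those in total RNA. Leaving out a replicate left 23 to 30 members called with UPF1-1 and 19 to 27 with UPF1-2. Without replicate 3 the split was 11 above and 19 below, and 21 and 6. Over all genes that fit called 3781 above and 5095 below with UPF1-1, and 3840 and 5332 with UPF1-2. Without replicate 1 the calls over all genes were 2934 and 4418, and 3080 and 4426. Without replicate 2 they were 3283 and 4680, and 3376 and 4757. Without the block 5 members were above and 9 below with UPF1-1, and 12 and 3 with UPF1-2. Over all genes it was 2368 and 3832, and 2526 and 3965. Upper-quartile scaling gave 10 above and 19 below with UPF1-1 and gave 15 and 7 with UPF1-2, while it turned the calls over all genes from 3691 above and 5251 below to 4917 and 3866 with UPF1-1, and from 3772 and 5293 to 4469 and 4221 with UPF1-2. IARS with UPF1-2 passed under equal medians and was at -0.027 under upper-quartile scaling. Under that scaling the members' median with UPF1-2 was 0.07, against 0.04 for all genes, in place of 0.22 against -0.15. With UPF1-1 it was -0.25 against 0.11, in place of -0.13 against -0.16. A pseudocount of 0.1 gave 9 members above and 20 below with UPF1-1, and 15 and 7 with UPF1-2. Over all genes it gave 3987 and 4596, and 3995 and 4698. A pseudocount of 1 gave 13 members above and 13 below with UPF1-1, and 26 and 5 with UPF1-2. Over all genes it gave 3622 and 5562, and 3754 and 5605.

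The last comparison asks whether the isoforms differ in how much of each mRNA they recover over total RNA. Synthetase mRNAs were recovered less with UPF1-1 than with UPF1-2: 19 of 36 were lower, 0 higher, and 35 of 36 fitted differences were below 0. VARS had the largest difference, followed among those called by AARS, YARS2, FARSA and GARS, the enzymes for valine, alanine, mitochondrial tyrosine, phenylalanine and glycine. The median over members was -0.46, or -0.50 for the cytosolic and -0.41 for the mitochondrial class, against -0.04 for all 11969 genes tested. Of all genes 55.3% were below 0, and 4.43% were called higher and 6.27% lower. The calls needed the block and equal medians: limma called 0 members and 0 genes without the block, without equal medians, without replicate 1 or without replicate 2, and 18 members without replicate 3. At an unadjusted p under 0.05 the members numbered 31 with all libraries, 13 without the block, 20 without equal medians, 16 without replicate 1 and 28 without replicate 2. The share of all genes at that unadjusted p was not counted, so these numbers do not show whether the members depart from all genes.

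VARS was listed at 23.7, 19.9 and 68.4 TPM in the UPF1-1 IP and at 51.4, 43.9 and 127 TPM in the UPF1-2 IP. In total RNA it was listed at 4.38, 4.70 and 12.7 TPM and at 4.44, 5.14 and 15.8 TPM. The IP values were lower with UPF1-1 in each replicate, and the total RNA values were nearer to each other. The difference in recovery was -0.92 ± 0.13 (SE), with -0.89, -0.91 and -0.97 in the 3 replicates and a limma adjusted p of 0.0154. VARS was below the ratio of the library medians with UPF1-1 (-0.34 ± 0.09) and above it with UPF1-2 (0.58 ± 0.09).

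AARS was listed at 70.6, 56.3 and 194 TPM in the UPF1-1 IP and at 83.1, 67.5 and 222 TPM in the UPF1-2 IP. Its difference in recovery was -0.65 ± 0.12 (SE; adjusted p = 0.0208, limma), and its total RNA was higher with UPF1-1, as above, so both parts of the ratio entered. YARS2 was listed at 31.7, 31.5 and 35.1 TPM and at 46.4, 37.4 and 41.4 TPM in the IPs, which did not overlap, and at 6.88, 7.24 and 6.74 TPM and 5.78, 5.43 and 6.19 TPM in total RNA. Its difference was -0.62 ± 0.10 (adjusted p = 0.0174, limma). GARS, at -0.60 ± 0.10 (adjusted p = 0.0178, limma), was listed at 96.4, 79.9 and 155 TPM in the UPF1-1 IP and 131, 108 and 209 TPM in the UPF1-2 IP, lower in each replicate number. FARSA was at -0.61 ± 0.10 and FARSB at -0.53 ± 0.10, so the subunits of the phenylalanyl enzyme had fitted differences near each other (limma adjusted p of 0.0174 and 0.0194).

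The other called cytosolic enzymes were QARS (-0.59), TARS, the threonyl enzyme (-0.55), WARS (-0.51), KARS (-0.49), MARS (-0.48), HARS (-0.48), CARS (-0.46) and RARS (-0.36). QARS varied between replicates, at -0.96, -0.17 and -0.62, and its limma adjusted p was 0.0498. The other called mitochondrial enzymes were CARS2 (-0.51), LARS2 (-0.51), TARS2 (-0.44), MARS2, the methionyl enzyme (-0.41), and AARS2 (-0.41). EPRS (-0.63 ± 0.19, SE) and VARS2 (-0.58 ± 0.17) had larger differences than most of these and did not pass, with limma adjusted p of 0.0669 and 0.0601. WARS2 was at 0.02 ± 0.12, the exception to the direction, and RARS2 and NARS2, the mitochondrial arginyl and asparaginyl enzymes, were at -0.06 ± 0.10 and -0.13 ± 0.20. NARS2 was listed at 25.2, 24.3 and 11.5 TPM in the UPF1-1 IP and 22.7, 25.2 and 13.1 TPM in the UPF1-2 IP, with replicate 3 the lowest, unlike the other members.

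Within the replicates, 35, 35 and 34 of the 36 members were below 0 in replicates 1, 2 and 3, with medians of -0.49, -0.38 and -0.54; all genes had medians of -0.01, -0.02 and -0.10. All 20 cytosolic enzymes were below 0 in the fit, with 13 called, and 15 of 16 mitochondrial enzymes, with 6 called. The complex and the free enzymes had medians of -0.48 and -0.52, with 4 of 8 and 9 of 12 called, and class I and class II enzymes had -0.48 and -0.51. Enzymes described as ATF4 targets and the other cytosolic enzymes had -0.50 and -0.51, with 6 of 12 and 7 of 8 called. The subgroups thus had medians near each other, and no difference between them was tested.

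**Figure D4:**
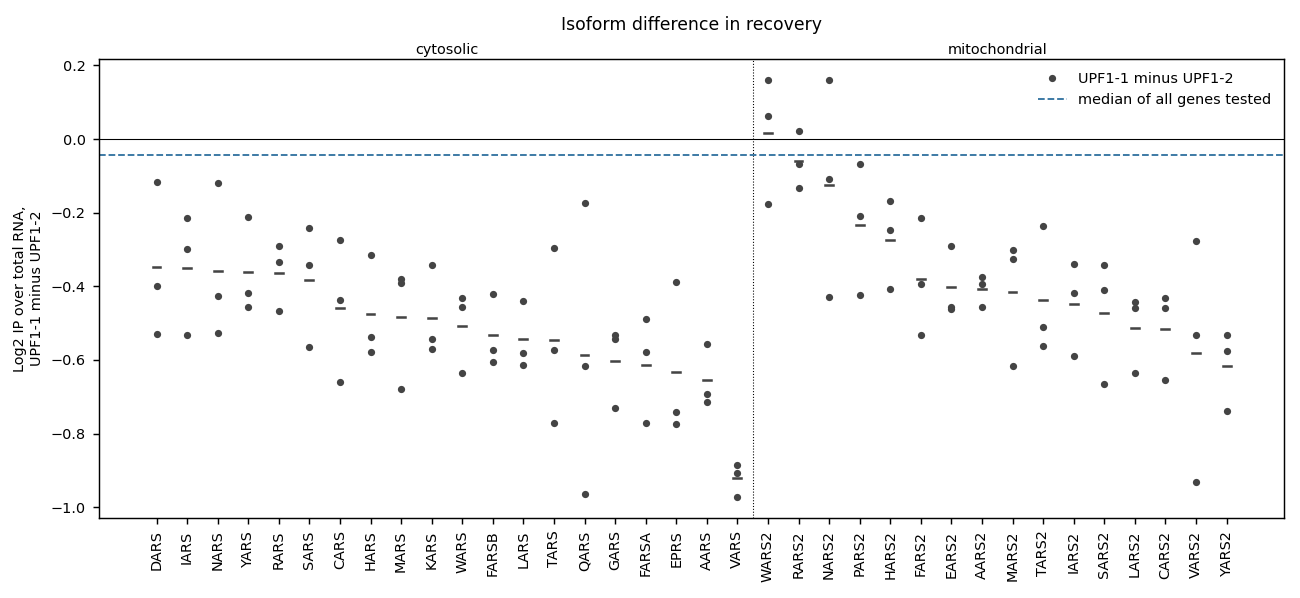
Difference between UPF1-1 and UPF1-2 in the log2 ratio of IP to total RNA for each member; points are the 3 replicate numbers, short bars the fitted values, and the dashed line the median of all genes tested (-0.04). VARS lies lowest at -0.92, and WARS2 is the member whose bar lies above 0.

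The difference also went with the level of an mRNA in the table as a whole. For genes with a mean total RNA level under 2 TPM the median difference was 0.02, and it was -0.07 from 2 to 5 TPM, -0.12 from 5 to 10 TPM, -0.15 from 10 to 20 TPM, -0.15 from 20 to 50 TPM and -0.24 from 50 TPM, where 81.2% of 384 genes were below 0. No member was in that last bin. In the other bins, in the same order, the members' medians were -0.51 (1 gene), -0.38 (9), -0.53 (7), -0.49 (8) and -0.48 (11). The member medians were lower than those of all genes in each of these bins, and across the 36 members the difference went little with level (r = -0.18). The total RNA libraries are the denominator of this measure, and in them the members' median was 0.10 higher with UPF1-1 than with UPF1-2. The part of level in the result was not tested.

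Beside the family, the carriers of charged tRNA and their exchange factors had 5 of 9 lower and a median of -0.43. These were EEF1A2 (-0.57), TUFM and TSFM, the mitochondrial elongation factors (-0.47 and -0.45), and EEF1B2 and EEF1G (-0.43 and -0.43). EEF1B2 and EEF1G were named after their values were seen. Genes that work with the synthetases had 3 of 20 lower, among them ELAC2, which trims tRNA 3′ ends (-0.67), and PET112, an amidotransferase subunit (-0.40), and a median of 0.03. The scaffold proteins of the complex differed in sign: AIMP1 was at 0.28 ± 0.10 (SE), EEF1E1 at 0.30 ± 0.11 and AIMP2 at -0.41 ± 0.12. None of these 3 passed (limma adjusted p of 0.118, 0.126 and 0.0566), and they were named after their values were seen. The ATF4 programme had 4 of 23 lower and 1 higher and a median of -0.09. ASNS, asparagine synthetase, was at -0.86, PHGDH and SHMT2, enzymes of serine and glycine metabolism, at -0.73 and -0.63. ALDH18A1 (-0.47) and the higher gene, CEBPG (0.54), were named after their values were seen.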

How the data were processed

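The analysis started from 1 deposited table of 12261 genes in 15 libraries, per the file headers in TPM; the submitters' processing notes name cutadapt, kallisto, sleuth and the build hg19, without versions. The table lists 1 Ensembl transcript per gene, and strand and read depth are not given in the sources used here. Per the file headers the authors also deposited the ratio of IP to total TPM, log2 fold changes of mean TPM, and sleuth p-values and q-values with effects on the natural log scale; the deposited ratios equalled recomputed ones in 100% of entries in 6 columns (relative tolerance 0.0001).

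TPM plus 0.5 was log2 transformed, library medians were set equal, and a gene entered a fit when 3 or more of its libraries reached 1 TPM, which all 36 members did. Limma 3.58.1 (R 4.3.3, trended prior variance) was run over 9325 genes and 9 total RNA libraries, or 11969 genes and 12 libraries for recovery, with Benjamini-Hochberg adjusted 2-sided p-values and a threshold of 0.05. The replicate number was a block in total RNA, and isoform and number together for recovery; the labels do not say what a number shares. The pairing of IP with total RNA comes from the deposited ratios. Deviations from group means correlated at 0.70 to 0.95 between same-numbered total RNA libraries (9 pairs) and 0.57 to 0.91 in the recovery fit (18 pairs), and at 0.64 to 0.80 and 0.59 to 0.74 between numbers 1 and 2, so the numbers mainly set replicate 3 apart. Other scalings, pseudocounts of 0.1 and 1, no filter, no block and leaving out each replicate were tried. The fits of UPF1-1 against GFP and of UPF1-1 recovery were tested on simulated data, with changes larger than any of the members' in total RNA. The other comparisons, among them the isoform difference, were not checked in this way.

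The members and all gene lists were chosen with earlier results of these data known. All members are named; other lists are given by counts and medians, with the 3 genes of largest change past the threshold per list and comparison at most, except where said; some genes of those lists are not reported here. Promoters came from RefSeq (GRCh38.p14) by current symbol; no coordinates of the table's build were used.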

Additional observations from a re-analysis of the deposited data

Results flagged for a closer look

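The results below differed between the UPF1-1 and UPF1-2 lines by a direct test of the difference (limma, adjusted p under 0.05). In total RNA 4 synthetase mRNAs were higher with UPF1-1: AARS by 0.33, FARSA by 0.23, MARS by 0.30 and SARS by 0.22 on the log2 scale. In recovery over total RNA 19 had a lower value with UPF1-1. Among free cytosolic enzymes these were VARS (-0.92), AARS (-0.65), FARSA (-0.61), GARS (-0.60), TARS (-0.55), FARSB (-0.53), WARS (-0.51), HARS (-0.48) and CARS (-0.46). In the multi-synthetase complex they were QARS (-0.59), KARS (-0.49), MARS (-0.48) and RARS (-0.36). Among mitochondrial enzymes they were YARS2 (-0.62), CARS2 (-0.51), LARS2 (-0.51), TARS2 (-0.44), MARS2 (-0.41) and AARS2 (-0.41). AARS, FARSA and MARS appear in both sets, with total RNA higher and recovery lower in the UPF1-1 line, and the total RNA libraries enter both measures. None of the 23 passed in limma without the block or without equal medians.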

How the results depend on the processing

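With no replicate block limma called 0 members in total RNA of UPF1-1 against GFP (7 with the block), 0 between the isoforms in total RNA (4), 14 and 15 in recovery with UPF1-1 and UPF1-2 (27 and 26), and 0 in the isoform difference in recovery (19). Over all genes it called 11 higher and 5 lower in UPF1-1 against GFP (781 and 726 with the block), 2 and 1 in UPF1-2 against GFP (26 and 9), 0 between the isoforms in total RNA (512 and 375) and 0 in the isoform difference (530 and 750). In recovery it called over all genes 2368 above and 3832 below with UPF1-1 (3691 and 5251), and 2526 and 3965 with UPF1-2 (3772 and 5293). TPM as deposited without equal medians gave 0 members in UPF1-1 against GFP, in the total RNA isoform comparison and in the isoform difference; so did no block and no equal medians together, chosen after seeing the data. With the block kept, TPM as deposited called over all genes 266 and 35, 3 and 3, and 74 and 15 in the total RNA comparisons, and 0 in the isoform difference. Upper-quartile scaling gave 12 members in the isoform difference and a pseudocount of 1 gave 10 (315 and 495 over all genes); a pseudocount of 0.1 gave 2 in the total RNA isoform comparison. By upper quartile the split over all genes was 769 and 463 in the isoform difference and 725 and 850 in UPF1-1 against GFP. Leaving out a replicate gave 0 to 5 members in UPF1-1 against GFP, 0 to 2 in the total RNA isoform comparison and 0 to 18 in the isoform difference. Over all genes, replicate 1, 2 or 3 left out gave 316 and 273, 135 and 71, or 599 and 542 in UPF1-1 against GFP; 4 and 3, 2 and 1, or 8 and 3 in UPF1-2 against GFP; and 250 and 201, 13 and 4, or 144 and 138 between the isoforms in total RNA. The cytosolic minus mitochondrial median in UPF1-1 recovery was -0.45, and -0.38 with a pseudocount of 1. IARS in UPF1-2 recovery changed sign, to -0.027 by upper quartile and -0.024 with a pseudocount of 0.1. With the medians set equal or scaled by upper quartile no other called member changed sign. With TPM as deposited all 36 members were higher in both IPs, so the 17 and 6 called below 0 changed sign. Of all genes tested 2.44% and 2.08% were below 0 in that setting. The cause of these shifts was not tested. The median isoform difference stayed below 0 in every setting, from -0.52 to -0.38. TPM carry no depth, so counting error is unknown.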
